A study of Mus musculus with 2 samples.

Results

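Glucose entry and glycogen metabolism were followed through 10 genes, 2 glucose transporters, 2 hexokinases, 4 genes of glycogen synthesis and 2 of glycogen breakdown, in tibialis anterior muscle after an androgen injection. They were chosen with earlier results of these data known, so comparisons of the members with all genes are descriptive. Probes were taken by name: every probe whose gene symbol in the platform annotation was one of the 10. This gave 14 of the 23978 named probes on the array. A gene counted as measured where a probe had a detection p-value under 0.01 on at least 1 array. That held for 8 of the 10 members and for 8815 of 16593 named genes, and the 8 members were detected on both arrays.

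C57/BL6 mice received a subcutaneous injection of vehicle or of DHT when 10 days old, and the muscle was taken 24 h later. DHT was taken to be dihydrotestosterone, an androgen. Each group had 1 Illumina bead array of total RNA and no replicate, so every difference describes these 2 arrays, without an error between animals and without a test. The labels do not give the dose, the sex of the animals, or whether an array held RNA of 1 animal or of a pool. In bulk muscle, fewer cells of a type and less RNA per cell cannot be told apart.

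Muscle takes up glucose from the blood through membrane transporters, and hexokinases trap it as glucose 6-phosphate. This sugar phosphate either enters glycolysis or is turned, through glucose 1-phosphate and UDP-glucose, into glycogen, a branched store built on the self-glucosylating protein glycogenin. Glycogen phosphorylase, switched on by phosphorylase kinase, releases glucose units from the store during contraction. The transporter GLUT4 sits in vesicles inside the fibre and is moved to the surface by insulin or exercise, while GLUT1 stands at the surface of many cell types.

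The DHT array was higher for 6 of the 8 measured members at 1.5-fold or more and lower for 0. Over all 8815 measured genes, 13.4% were higher and 15.8% lower by that fold. At 2-fold, 4 of the 8 members were higher and 0 lower, against 4.61% and 6.28% of all genes. Without background correction, 5 were 1.5-fold higher and 0 lower, against 6.74% and 8.43% of all genes. The members' median difference, DHT minus vehicle on the log2 scale, was 0.94, against -0.01 for all measured genes. Phka1 of glycogen breakdown, the transporter gene Slc2a1 and the hexokinase gene Hk2 had the largest differences, between 2.72-fold and 3.78-fold, and Slc2a4 and Ugp2 were the measured members under 1.5-fold. Where the arrays were scaled to the same median in place of quantile normalization, the median of all genes moved to -0.13, and of all genes past 1.5-fold 31.7% were higher in place of 45.8%. The members' median was then 0.84, with 6 again higher.

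**Figure D1:**
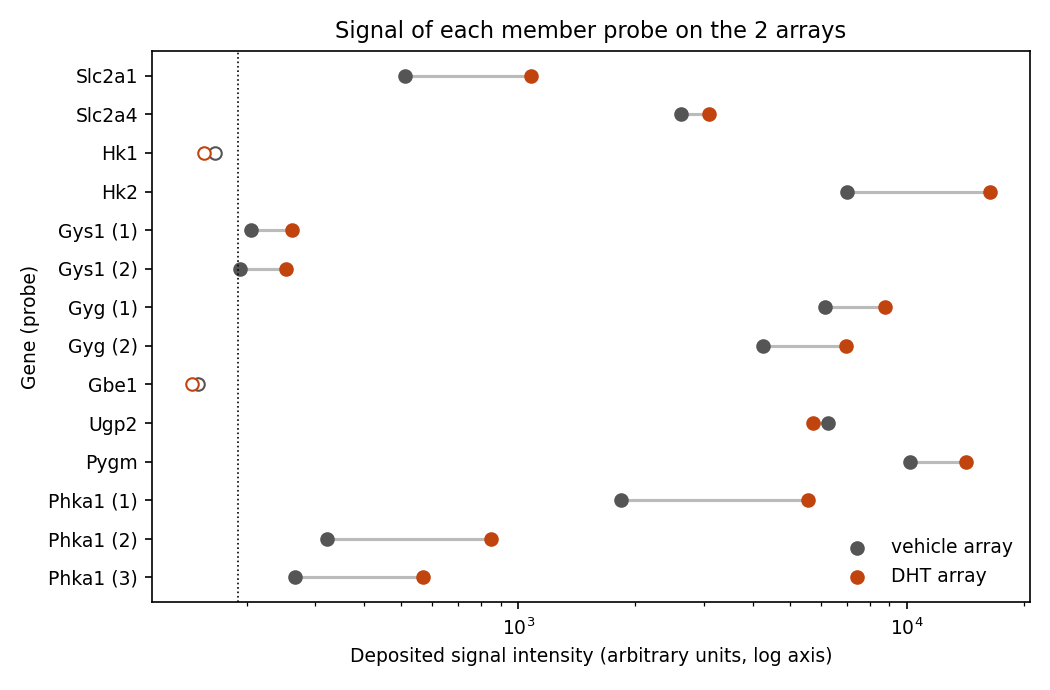
Deposited signal intensity of each of the 14 member probes with vehicle (grey) and with DHT (orange), on a log axis in arbitrary units; the number after a gene's name tells its probes apart, brightest first, open circles are probes detected on neither array, and the dotted line marks 190, the lowest detected signal on the vehicle array. The Hk2, Phka1 and Slc2a1 probes show the widest gaps, and Ugp2 is the detected member whose DHT signal was the lower of the pair.

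Of the transporters, Slc2a1 encodes GLUT1. Its probe (ILMN_1258159) had a deposited signal of 512 with vehicle and 1079 with DHT. After background correction and quantile normalization the difference was 1.63, or 3.10-fold, and it was 2.52-fold without background correction. The difference ranked 111 from the top among the 8815 genes.

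Slc2a4 encodes GLUT4, the insulin-responsive transporter of muscle and fat. Its probe (ILMN_1222333) had signals of 2613 (vehicle) and 3098 (DHT), a difference of 0.51, or 1.42-fold. The DHT array was brighter, but by less than 1.5-fold under each way of processing, with differences from 0.41 to 0.51.

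A gap of a given size means less where probes of like brightness scatter widely, so each member was set beside the probes detected on both arrays whose mean signal lay within 10% of its own. For Slc2a1 these were 583 probes, and the central 95% of their differences ran from -1.34 to 1.09, real differences included. Slc2a1 lay above that range, with 6 of the 583 higher. For Slc2a4 the range was -1.58 to 1.14, and the member lay inside it.

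Of the hexokinases, Hk2 encodes the isoform typical of insulin-sensitive tissues such as skeletal muscle. Its probe (ILMN_1239397) had a signal of 7000 with vehicle and 16312 with DHT. The difference was 1.44, or 2.72-fold, and lay between 1.39 and 1.44 under the processing alternatives. None of the 103 probes of like brightness had a larger difference, their central range being -1.09 to 0.77.

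Hk1 encodes the hexokinase found in most tissues. Its probe (ILMN_2644025) was detected on neither array, with signals of 166 and 155 and detection p-values of 0.0664 and 0.138 on the vehicle and DHT arrays. Both signals lay below the lowest detected ones, 190 with vehicle and 180 with DHT, so no difference of Hk1 could be measured.

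In glycogen synthesis, Gyg encodes glycogenin, the protein on which a new glycogen particle starts. Its brighter probe (ILMN_2686069) had signals of 6143 (vehicle) and 8755 (DHT), a difference of 0.73, or 1.66-fold. The second probe (ILMN_2661635) had signals of 4249 and 6941, a difference of 0.94. Both probes were brighter on the DHT array, and both differences lay inside the central range of probes of like brightness, -1.13 to 1.20 for the brighter one.

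Gys1 encodes muscle glycogen synthase, which lengthens the chains. It was dim: probe ILMN_2658554 had signals of 205 (vehicle) and 261 (DHT), and probe ILMN_2658553 had 192 and 253. The differences were 1.14, or 2.21-fold, and 1.33, or 2.51-fold. The size rested on the background correction, since without it the folds were 1.42 and 1.46, both under 1.5-fold. The first probe's difference sat at the upper edge of the central range of its 1172 neighbours in brightness, -1.04 to 1.14. The second probe's lay above its range, -0.94 to 1.03, with 6 of 1160 neighbours higher.

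Ugp2, which encodes the enzyme that makes UDP-glucose, the donor for glycogen synthase, was the measured member that differed least. Its probe (ILMN_1244631) had signals of 6236 (vehicle) and 5728 (DHT). The total signal of the DHT array was 0.888 of that of the vehicle array, and after normalization the difference was 0.10, or 0.02 with the arrays scaled to the same median. Gbe1, the branching enzyme, was detected on neither array, with signals of 150 and 145 on its probe (ILMN_2592690).

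In glycogen breakdown, Phka1 encodes the muscle form of the regulatory alpha subunit of phosphorylase kinase. Its brightest probe (ILMN_2712685) had signals of 1833 (vehicle) and 5540 (DHT), a difference of 1.92, or 3.78-fold, which ranked 75 from the top of 8815 genes. Probe ILMN_1230564 had signals of 322 and 851, a difference of 2.21, and probe ILMN_2755333 had 267 and 568, a difference of 2.01.

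The 3 Phka1 probes are annotated to 2 different transcript records of the gene, and all 3 were brighter on the DHT array by 3.78-fold or more. Uncorrected, the 3 folds were 3.57, 3.08 and 2.47. The lowest and highest of their differences were 0.29 apart, where probes of 1 gene differed with an SD of 0.25 over 1967 genes that had several probes detected on both arrays. Each lay above the central range of probes of like brightness, which for the brightest was -1.23 to 1.10.

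Pygm encodes muscle glycogen phosphorylase, the enzyme that phosphorylase kinase activates. Its probe (ILMN_1220498) had signals of 10168 (vehicle) and 14136 (DHT), a difference of 0.68, or 1.60-fold. It lay just above the central range of its 88 neighbours in brightness, -1.66 to 0.67, with 2 of them higher. No member probe reached 40000, near the top of the scale, so none of the members' folds was compressed there.

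**Figure D2:**
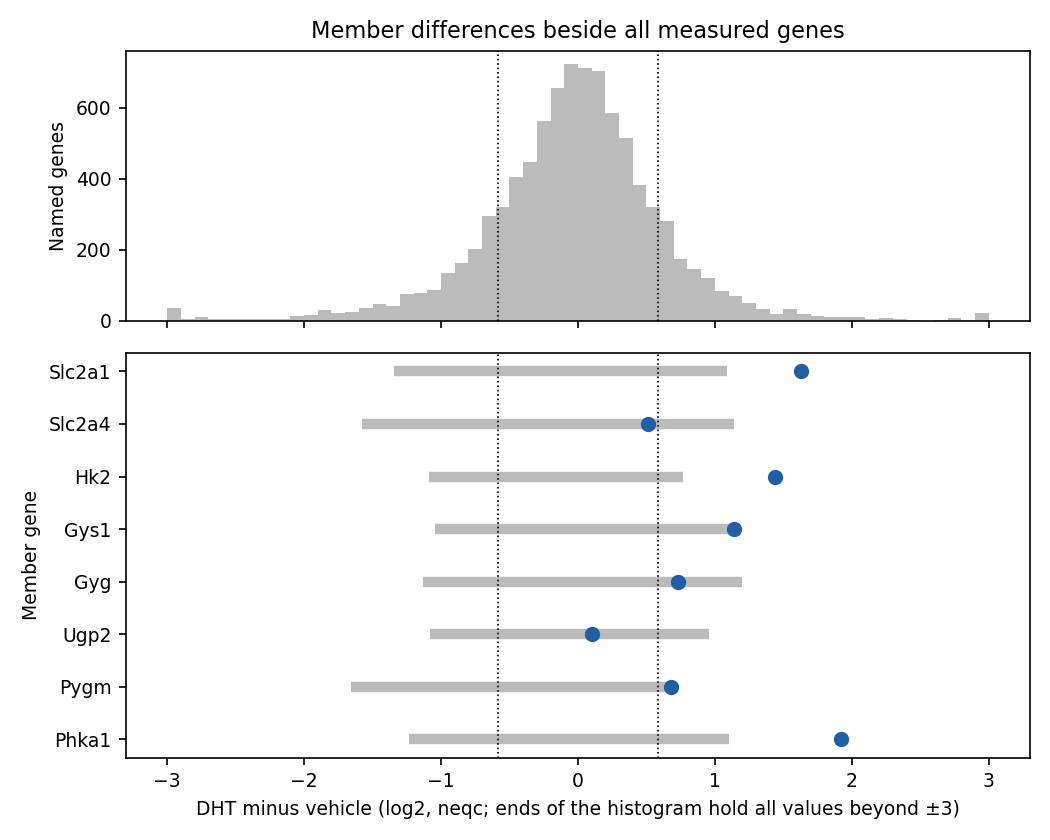
Top, the number of named genes at each log2 difference, DHT minus vehicle, over the 8815 measured genes; bottom, the 8 measured members (points) on the same axis, each over a bar that spans the central 95% of differences of probes within 10% of its mean signal, with dotted lines at 1.5-fold lower and higher. Each gene is shown by its brightest probe. Phka1, Slc2a1 and Hk2 lie well beyond their bars, Pygm (0.68 against 0.67) just beyond, Gys1 at the upper end, and Slc2a4, Gyg and Ugp2 within them.

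**Figure D3:**
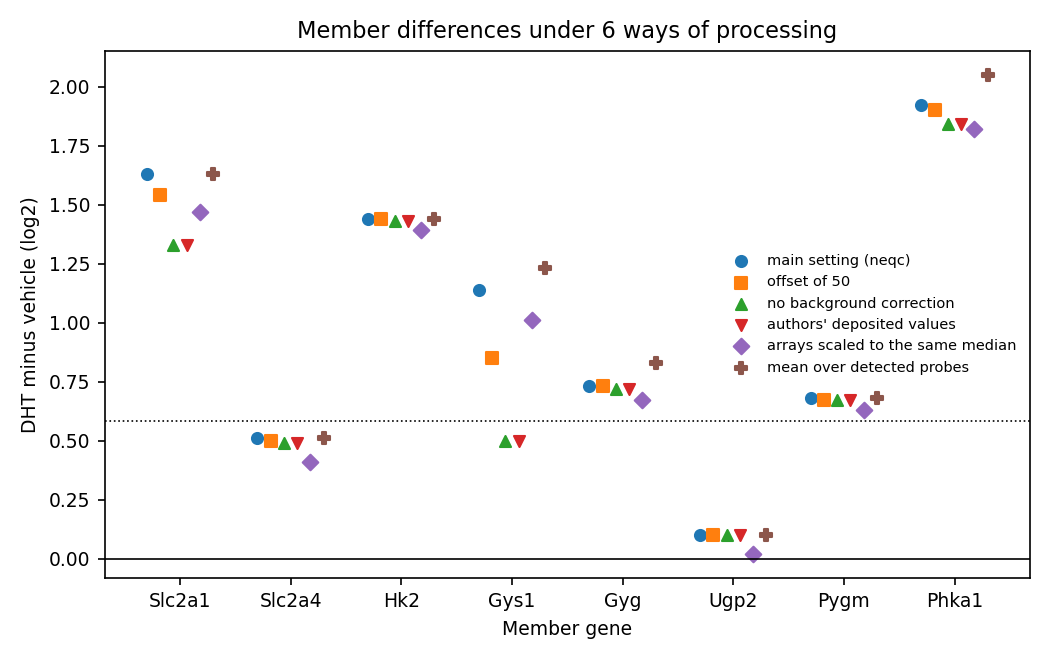
Log2 difference, DHT minus vehicle, of the 8 measured members (columns) under 6 ways of processing (symbols), with a dotted line at 1.5-fold. Gys1 is the member that crosses the line, from 1.14 to 0.50 without background correction, while Hk2, Gyg and Pygm move little.

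The order of the measured members by difference was Phka1 (1.92), Slc2a1 (1.63), Hk2 (1.44), Gys1 (1.14), Gyg (0.73), Pygm (0.68), Slc2a4 (0.51) and Ugp2 (0.10). Neighbours in this order were up to 0.41 apart. Several gaps, among them those of Slc2a1 from Hk2 and of Gyg from Pygm, were smaller than the probe-to-probe SD of 0.25. Those neighbours are not ordered by these data. That SD holds no spread between animals, so with 1 array per group the larger gaps between neighbours do not settle an order either.

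The promoters of the 3 members with the largest differences are shown because these genes were higher together on the DHT array. RefSeq promoter sequences of build GRCm38.p6, 250 bases before to 50 after a transcript start, matched 9 of the 10 members by gene identifier, with 11 promoters in all. Capitals mark ACGTG, the core of the element bound by hypoxia-inducible factors, and GGGCGG, the GC box bound by Sp1-type factors, on either strand. Phka1 lies at chrX:102644197-102644496, minus strand, Slc2a1 at chr4:119108495-119108794, plus strand, and Hk2 at chr6:82774405-82774704, minus strand.
Phka1: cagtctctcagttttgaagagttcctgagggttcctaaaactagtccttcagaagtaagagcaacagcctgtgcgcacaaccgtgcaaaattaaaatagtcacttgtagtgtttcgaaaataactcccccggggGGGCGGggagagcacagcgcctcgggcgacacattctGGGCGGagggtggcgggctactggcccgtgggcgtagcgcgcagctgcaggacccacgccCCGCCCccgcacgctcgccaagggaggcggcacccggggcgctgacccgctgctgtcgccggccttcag
Slc2a1: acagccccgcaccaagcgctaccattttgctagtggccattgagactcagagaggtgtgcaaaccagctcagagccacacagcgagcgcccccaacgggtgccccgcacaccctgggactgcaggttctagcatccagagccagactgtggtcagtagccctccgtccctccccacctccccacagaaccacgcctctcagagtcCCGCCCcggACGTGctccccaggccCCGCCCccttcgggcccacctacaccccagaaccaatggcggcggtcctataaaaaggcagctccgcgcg
Hk2: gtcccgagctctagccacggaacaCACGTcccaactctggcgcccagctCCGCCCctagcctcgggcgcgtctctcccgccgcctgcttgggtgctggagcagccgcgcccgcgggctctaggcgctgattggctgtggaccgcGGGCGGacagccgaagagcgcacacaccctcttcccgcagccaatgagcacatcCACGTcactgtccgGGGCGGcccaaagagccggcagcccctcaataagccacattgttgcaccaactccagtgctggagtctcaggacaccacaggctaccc

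The Hk2 promoter held 2 matches to ACGTG and 3 to GGGCGG, the Slc2a1 promoter 1 and 2, and the Phka1 promoter 3 to GGGCGG. The hypoxia core ACGTG was found in 6 of the 11 member promoters and in 19.6% of all 32851 promoters of the same length, and GGGCGG in 8 of the 11 and in 35.7% of all. The promoters of 6 genes held ACGTG: those of Slc2a1, Hk2, Gyg and Pygm, and 1 each of the 2 promoters of Hk1 and Ugp2. Of these genes, Ugp2 differed by 0.10 between the arrays, and Hk1 was detected on neither array. A link between the motif and the differences was not tested. In Gyg it was counted on both strands of a CACGTG, the E-box. The perfect palindromic element for androgen and glucocorticoid receptors, searched on both strands, was in 0 of the 11 windows and in 0.00913% of all. One arm of it, TGTTCT, was in 1 of 11, at Hk1, and in 19.0% of all. The 3 promoters printed above were GC-rich as well, at 65.3% for Slc2a1, 67.3% for Hk2 and 62.7% for Phka1. The median of all promoters was 52.7%, and the 11 member promoters ran from 51.3% (1 of Hk1) to 76.0% (1 of Ugp2). These matches describe letters in a 300-base window and are no evidence of binding.

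Beyond the 10 members, 8 lists held 133 further genes, 83 of them measured. The lists covered the pathway, its control, and the hypoxia-inducible factor with its common targets. Of the 83, 17 (20.5%) were higher and 9 (10.8%) lower at 1.5-fold, where 13.4% and 15.8% of all genes were. The hypoxia list, with 11 measured genes, gave 6 of the 17 higher and 0 of the lower.

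Among genes that control glycogen, Ppp1r3c had the largest difference. Ppp1r3c, a scaffold that brings protein phosphatase 1 to glycogen and so favours its synthesis, had signals of 12301 (vehicle) and 40191 (DHT), a difference of 1.89, or 3.70-fold. The DHT signal was near the top of the scale, so this fold may be too small. Of the 15 measured genes in this list 6 were higher and 0 lower, or 5 of the 14 detected on both arrays, and the list median was 0.26.

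The others were Prkaa2, a catalytic subunit of the energy sensor AMPK (1.00), and Ppp1cb, a catalytic subunit of protein phosphatase 1 (0.87). With them came the AMPK subunit gene Prkag2 (0.79), Ppp1r3f, another phosphatase targeting subunit (0.68), and Gsk3a, a kinase that inhibits glycogen synthase. Uncorrected, Prkag2 (1.43-fold) and Ppp1r3f (1.31-fold) were under 1.5-fold, while Prkaa2 (1.74-fold) and Ppp1cb (1.79-fold) stayed above it. Gsk3a had signals of 169 (vehicle) and 187 (DHT) and was not well above background with vehicle. Its difference was 0.75, but its uncorrected fold was 1.18, so its size is uncertain. Its relative Gsk3b differed by 0.29. Without background correction 3 of the 15 were higher, against 6.74% of all genes.

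Of the other phosphorylase kinase subunits, Phkg1 alone was past 1.5-fold when each gene was read from its brightest probe. The muscle catalytic subunit gene Phkg1 had signals of 9984 (vehicle) and 13794 (DHT), a difference of 0.67, or 1.59-fold. The shared beta subunit gene Phkb differed by 0.57, or 1.48-fold, and its second probe by 0.86, which is past 1.5-fold. The liver-type subunit genes had differences below 0: that of Phka2 was -0.35, its 3 probes lying between -0.49 and -0.35, and that of Phkg2 was -0.07, less than the probe-to-probe SD. The difference of Phka1 exceeded that of Phka2 by 2.27. By brightest probe, Phkg1 was the only gene past 1.5-fold among the 9 measured of other glycogen breakdown, whose median was 0.21. That is 11.1% higher and 0 lower, against 13.4% and 15.8% of all genes.

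The list for the rest of glycogen synthesis also held Stbd1, named for binding glycogen and not for making it. Stbd1 was 1.75-fold lower (-0.81), with signals of 6434 (vehicle) and 3173 (DHT). Pgm1, the phosphoglucomutase that joins glucose 6-phosphate to glucose 1-phosphate, differed by 0.25. Of the 4 measured genes of this list 1 was lower and 0 higher, with a median of -0.14, and Pgm2 was detected on neither array.

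Txnip and Arrdc4, which restrain glucose entry, were lower. Txnip, an arrestin-like protein that restrains glucose uptake, had signals of 14694 (vehicle) and 4058 (DHT), a difference of -1.66, or 3.17-fold lower. Its relative Arrdc4 was 1.82-fold lower (-0.86). The transporter gene Slc2a10 had signals of 219 (vehicle) and 173 (DHT) and was not well above background with DHT. Its difference was -0.68, but its uncorrected fold was 1.17 and its second detected probe stood at -0.15, so its size is uncertain. Together 3 of the 7 measured genes of other transport and entry (42.9%) were lower and 0 higher, against 15.8% and 13.4% of all genes. Of the 6 detected on both arrays 2 were lower and 0 higher. The list median was -0.46.

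The machinery that carries GLUT4 vesicles had a median of 0.01 over 13 measured genes, with 1 higher and 1 lower. Each is 7.69% of the list, below the 13.4% higher and 15.8% lower of all genes. Aspscr1, a tether that holds GLUT4 vesicles inside the cell, was 1.67-fold higher (0.74, its other probe at 0.69), and Tbc1d1, a Rab GTPase-activating protein that restrains GLUT4 movement, 1.82-fold lower (-0.86, 1.43-fold uncorrected). No probe carried the symbol Tbc1d4 in the platform annotation, so it was not measured.

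Of the 9 measured genes of insulin signalling toward glucose entry, 4 (44.4%) were lower and 1 (11.1%) higher, and their median was -0.56. Over all genes, 15.8% were lower and 13.4% higher. Grb10, an adaptor that damps the insulin receptor, had signals of 22300 (vehicle) and 8478 (DHT), 2.31-fold lower (-1.21). The related Grb14 was 1.60-fold lower (-0.67, 1.37-fold uncorrected). The catalytic subunit gene Pik3ca (-0.87, 1.60-fold uncorrected) and the receptor substrate Irs2 (-0.69, 1.44-fold uncorrected) were lower. The regulatory subunit gene Pik3r1 was higher (0.83, 1.73-fold uncorrected). Insr, Irs1, Akt1 and Akt2 were detected on neither array. Without background correction 2 of the 9 were lower, against 8.43% of all genes.

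Glycolysis after glucose 6-phosphate had a median of 0.17 over 15 measured genes, with 2 higher and 0 lower. The share higher, 13.3%, was near the 13.4% of all genes, of which 15.8% were lower. The lactate exporter gene Slc16a3, dim at 226 with vehicle and 315 with DHT, was 2.41-fold higher (1.27, 1.57-fold uncorrected), and Pgam1 1.54-fold (0.63, 1.31-fold uncorrected). Pfkm, the muscle phosphofructokinase, differed by 0.17 at signals of 50078 and 53505, and its 3 probes ran from 0.17 to 0.80. Of the 15 genes 7 were above 40000 on both arrays, where differences are compressed.

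**Figure D4:**
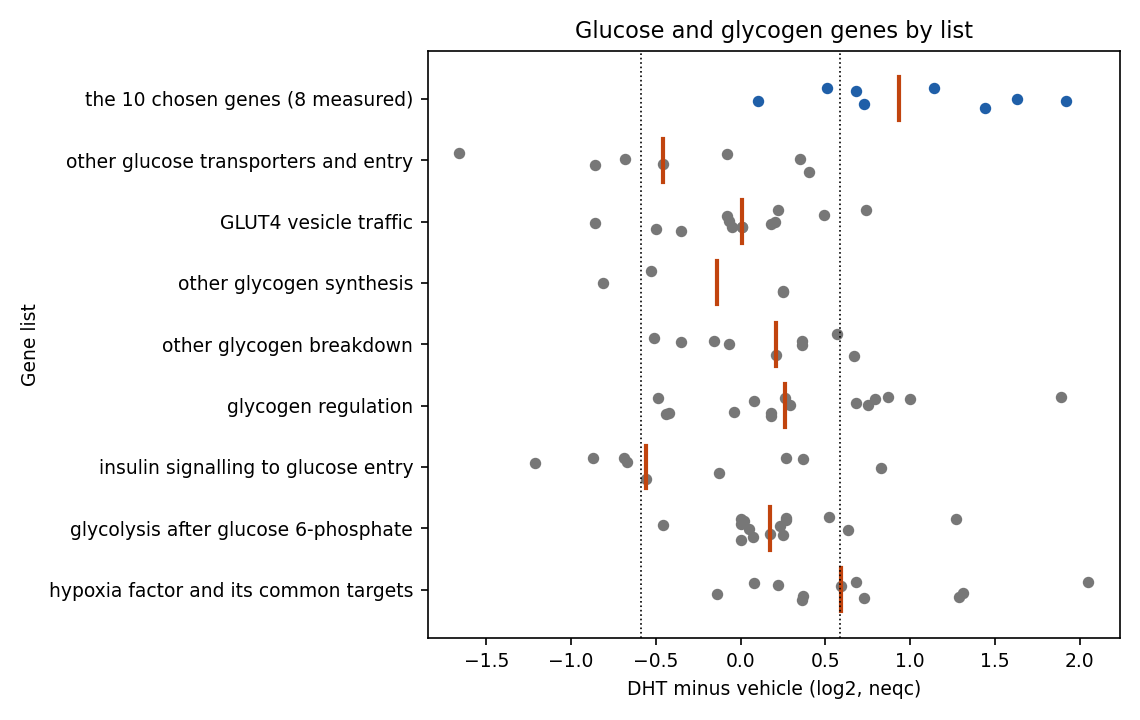
Log2 difference, DHT minus vehicle, of each measured gene (points, spread vertically for sight only) by list, with the list's median as an orange bar and dotted lines at 1.5-fold lower and higher. The members' median of 0.94 lies right of those of the 8 other lists, which run from -0.56 for insulin signalling to 0.59 for hypoxia genes.

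Markers of the cells in the sample differed between the arrays beside these genes. All 11 skeletal muscle markers were detected, 7 of them above 40000 on both arrays, with a median of 0.01 and 1 higher, myoglobin, Mb (0.75). That median rests on compressed differences: Actn3, read from a probe above 40000 at 0.10, had 3 probes from 0.10 to 0.97. Adipocyte markers, from a tissue that also makes GLUT4, were higher for 6 of 8 measured and lower for 0, with a median of 1.13. Plin1 among them was detected on the DHT array only, and of those detected on both arrays 5 of 6 were higher. The summed signal of the 8 was 12301 with vehicle and 22799 with DHT. Scd1 was the brightest of them and gave 7172 and 13778 of these sums. Pparg (0.50) and Lipe (0.55) were under 1.5-fold, and Fabp4 and Retn were detected on neither array. Endothelial markers, from cells that also make GLUT1, were lower, 7 of 8, with a median of -1.11 and summed signals of 22292 and 10086, Egfl7 being the brightest and Kdr detected on neither array.

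Of the 7 measured erythroid markers 3 were higher and 1 lower, with summed signals of 67684 and 77848 and Hba-a1 the brightest. Of 4 Schwann and perineurial markers 1 was higher and 0 lower, with summed signals of 15864 and 16466 and Pmp22 the brightest. Fibroblast markers were lower for 7 of 9, with summed signals of 110199 and 67018 and Dcn the brightest. Neutrophil markers were lower for 7 of 8, with 11100 and 3630 and S100a8 the brightest. Macrophage markers were lower for 2 of 5, with 7072 and 5682 and Mrc1 the brightest. Postn, Ngp, Mpo and Cx3cr1 among the lower ones were detected on the vehicle array only. Of those detected on both arrays, 6 of 8 fibroblast, 5 of 6 neutrophil and 1 of 4 macrophage markers were lower. Hba-a1 (56698 with vehicle, 66093 with DHT) and Dcn (49857 and 45752) were above 40000 on both arrays, where differences are compressed. The erythroid and fibroblast sums rest in part on these signals. The 6 liver markers were detected on neither array. Without background correction, 0 of the 5 macrophage markers, 6 of 8 neutrophil, 6 of 9 fibroblast and 7 of 8 endothelial markers were lower. In that setting 5 of 8 adipocyte and 2 of 7 erythroid markers were higher. Over all genes, 8.43% were then lower and 6.74% higher. The part of these cell types in the members' differences was not tested.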

How the data were processed

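Signals came from Illumina bead arrays of 0.55 µg total RNA per the labels' protocols. The deposited signal intensity is linear, and by its values neither background-subtracted nor scaled between arrays. A detection p-value deposited by the authors accompanies each signal. The authors' deposited log2 values, with a median of 7.43 on each array, differed by at most 0.000654 from log2 signals that were quantile normalized here. GenomeStudio 2011.1 is named in the submitters' processing notes; what it was used for is not given, nor is a genome build.

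The function neqc of limma 3.58.1 (R 4.3.3) estimated the background from the detection p-values, corrected it, added 16 to each value and quantile normalized on the log2 scale. The step was tested on simulated data. A gene's value came from its brightest probe detected (p under 0.01) on at least 1 array. Folds are brighter over dimmer. A gene below background on 1 array has a bound, against the lowest detected signal of that array or its own, whichever was higher. Counts use 1.5-fold on the fitted difference, also for such genes, whose bound can be smaller. Each array had 25697 probes, 46.5% and 45.7% of them detected on the vehicle and DHT arrays, with median signals of 177 and 168; the number of arrays limits the precision. Symbols came from the platform annotation, which can be old: 23978 probes had 1 symbol, 0 several and 1719 none, and the 10 members' Entrez identifiers matched a GRCm38.p6 gene table. Python 3.11.15 with pandas 2.3.3 made the tables and matplotlib 3.10.9 the plots.

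The 10 members and the gene lists were chosen with earlier results of these data known. Named were all members, every gene of the 8 pathway lists past 1.5-fold, Tbc1d4, Ppp1r3c, Gsk3b, Txnip, Pfkm and Pgm2 whatever their values, and the brightest gene of each marker list; 1 further gene of the rule is not reported here; further genes of the lists were named after their values were seen. With 2 arrays no likeness of pattern between genes can be measured.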

Additional observations from a re-analysis of the deposited data

How the results depend on the processing

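The count of 6 members at least 1.5-fold higher stayed between 4 and 6 under 9 alternatives, and 0 were lower in each. It was 5 without background correction and with the authors' deposited values, where Gys1 fell under the threshold (0.50), and 4 at 2-fold. The authors' values were nearly those without background correction, so their count is no separate check. The 2-fold count uses a stricter threshold, not another processing. The same members stayed in with a looser detection threshold, with detection required on both arrays, and without probes near the top of the scale. So these settings could not change the count or the members' median. The members' median lay between 0.69 and 1.03. With an offset of 50 the Gys1 difference was 0.85, and the Slc2a1 difference was 1.33 without background correction and with the authors' values. Over all genes, 594 were higher and 743 lower without background correction, the same counts with the authors' values, against 1180 and 1394 in the main setting, and 406 and 554 at 2-fold. No value changed sign for a member past 1.5-fold. Dim genes such as Gys1 are limited by signal over background, since their corrected difference depends on the background subtracted. No paired analysis was possible because each group had 1 array.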

Other observations

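Genes of the hypoxia-inducible factor pathway, which controls many glucose transporter and glycolysis genes, were higher with DHT by 1.5-fold or more for 6 of 11 measured members of that list and lower for 0, or 5 of the 9 detected on both arrays. The list median was 0.59, and 13.4% of all genes were higher by that fold. Egln3, a prolyl hydroxylase that marks the factor for breakdown, had signals of 1636 (vehicle) and 5398 (DHT), 4.14-fold higher (2.05, with its other probe at 2.23). Its relative Egln1 was 2.44-fold higher (1.29, with 3 probes from 1.11 to 1.83), the carbonic anhydrase gene Car9 2.47-fold (1.31, 1.55-fold uncorrected) and the peptide hormone gene Adm 1.60-fold (0.68, 1.30-fold uncorrected). Hif1a, a subunit of the factor itself, was 1.51-fold higher (0.59, 1.29-fold uncorrected), and Bnip3, near background with vehicle (not well above it), at least 1.15-fold higher (1.17-fold uncorrected). By brightest probe, Epas1 (0.37, detected on the DHT array only), Vegfa (0.36), Ndrg1 (0.22), Arnt (0.08) and P4ha1 (-0.14) were under 1.5-fold. The second probe of Vegfa stood at 0.69, past 1.5-fold, that of Ndrg1 at 0.43 and that of Arnt at -0.42. Without background correction 3 of the 11 were higher, against 6.74% of all genes, and the list median was 0.34.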
